A study of Mus musculus with 6 samples.

Results

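The genes described here are 10 of the 23951 genes in the expression table and encode matrix proteases of melanoma cells and the inhibitors that hold them in check. They were picked out by symbol, with no threshold on a measured value but with earlier results of these data known, and all 10 were found: the matrix metalloproteinases Mmp2, Mmp14, Mmp15 and Mmp17, the sheddases Adam10 and Adam17, the plasminogen activator Plau, and the tissue inhibitors of metalloproteinases Timp1, Timp2 and Timp3. RNA was sequenced from 3 lines of the B16 mouse melanoma, with 2 libraries for each line. B16-F1 is the parental line of low metastatic potential and was bought from a cell repository, B16-F1R2 is its lymph node metastatic variant, and B16-F1R2L was grown from a lung metastasis that had arisen from a lymph node metastasis. All 3 lines were cultured without any treatment in DMEM with 10% fetal bovine serum, and no source says whether libraries of 1 line stem from separate cultures, so p-values measure only the spread between these libraries, which may be technical. Both variants came from another laboratory and each is a single line, so that line and source cannot be told apart. The comparison asks how proteolytic capacity at the RNA level differs between the parental line and its metastatic variants, in a study that followed the cleavage of EMILIN-1, a glycoprotein of elastic fibres.

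Matrix metalloproteinases are made as inactive precursors and degrade collagens and other matrix proteins once their propeptide is removed. Mmp14 is anchored in the plasma membrane, and on the cell surface a complex of Mmp14 and Timp2 captures the Mmp2 precursor so that a neighbouring free Mmp14 can activate it, which is why Timp2 serves both as an inhibitor and as an adaptor. Adam10 and Adam17 release the outer parts of membrane proteins such as growth factor precursors, and Timp3, the inhibitor that stays bound to the matrix, also blocks Adam17. RNA levels say nothing of whether a protease is active.

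Gene positions are those of the NCBIM37 annotation. Promoter sequences from RefSeq (GRCm38.p6, 250 bases before to 50 after the start) were at hand for 7 of the 10 genes, namely Mmp14, Mmp15, Adam10, Adam17, Timp1, Timp2 and Timp3. All 7 held at least 1 GC box, searched as GGGCGG on both strands, which 35.7% of 32851 promoters of this length held. None of the 7 held the AP-1 letters TGANTCA, found in 7.81% of promoters, or the TATA letters TATAAA, found in 13.6%, again on both strands; the only matches that overlapped were 2 GC boxes of Adam10, which is not printed. Sequences are printed here for the 2 inhibitors higher in both variants (Timp1 and Timp3) and for Mmp14 and Timp2, lower in both. The membrane protease Mmp15 fell by more than Mmp14 in both variants, and its promoter, with 1 GC box, is not printed. The printed sequences are the 250 bases before the start, 5′ to 3′ along the gene, with the GC boxes in capitals. They are Timp1 (chrX:20869916-20870165, plus strand), Timp3 (chr10:86300162-86300411, plus strand), Mmp14 (chr14:54431348-54431597, plus strand) and Timp2 (chr11:118355412-118355661, minus strand).
Timp1: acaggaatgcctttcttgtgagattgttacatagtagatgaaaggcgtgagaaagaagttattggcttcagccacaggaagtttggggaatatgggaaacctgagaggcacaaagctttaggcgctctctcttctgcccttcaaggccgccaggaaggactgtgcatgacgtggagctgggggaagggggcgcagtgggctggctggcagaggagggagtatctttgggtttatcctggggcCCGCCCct
Timp3: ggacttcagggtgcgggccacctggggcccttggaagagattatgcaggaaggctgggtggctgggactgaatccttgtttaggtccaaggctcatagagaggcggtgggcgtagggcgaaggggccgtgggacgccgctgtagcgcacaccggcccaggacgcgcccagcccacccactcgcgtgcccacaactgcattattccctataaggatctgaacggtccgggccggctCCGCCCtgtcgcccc
Mmp14: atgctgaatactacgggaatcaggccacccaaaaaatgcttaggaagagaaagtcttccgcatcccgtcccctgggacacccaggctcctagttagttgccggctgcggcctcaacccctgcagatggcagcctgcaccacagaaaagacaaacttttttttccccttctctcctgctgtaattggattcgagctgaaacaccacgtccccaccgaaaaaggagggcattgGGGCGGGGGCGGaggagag
Timp2: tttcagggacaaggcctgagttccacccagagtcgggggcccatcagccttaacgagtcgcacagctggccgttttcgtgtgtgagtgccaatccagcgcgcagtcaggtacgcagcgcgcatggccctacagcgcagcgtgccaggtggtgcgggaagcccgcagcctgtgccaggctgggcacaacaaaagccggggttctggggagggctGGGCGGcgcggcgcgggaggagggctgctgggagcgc
GC boxes stood in both pairs, and Mmp14 held a pair of them directly next to each other. The GC content of the full promoters was 55.0% for Timp1, 67.0% for Timp3, 56.0% for Mmp14 and 68.7% for Timp2, against a median of 52.7% over all promoters. A match to these letters is a description of the sequence and no evidence that a factor binds there.

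Values are FPKM, read fragments scaled by transcript length and by the mapped reads of the library, which allow levels of different genes to be set side by side. The estimated depth was 12800000 to 15000000 reads per library, and 10617 to 11168 genes reached 1 FPKM. Lines were compared with limma on log2(FPKM + 0.1) over the 11379 genes that 2 or more libraries held at 1 FPKM or above, and a gene passed at a Benjamini-Hochberg adjusted p under 0.05. Of the 10 genes, 8 passed this filter, and Mmp17 and Plau did not. The pseudocount of 0.1 makes fold changes of low genes smaller than the ratio of their FPKM. Melanocyte markers were present in every library, 7 of 7, and their summed level was 14970 to 15010 FPKM in B16-F1, 7909 to 8125 in B16-F1R2 and 8924 to 8933 in B16-F1R2L. In each variant 6 of these markers were lower than in B16-F1, beside 27.2% of all genes tested in B16-F1R2 and 27.1% in B16-F1R2L. Mitf, the remaining marker, was higher in B16-F1R2L (0.40 on the log2 scale, adjusted p 0.0032 from limma) and did not pass in B16-F1R2.

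In B16-F1R2, Mmp2, Timp1 and Timp3 were higher than in B16-F1, Mmp14, Mmp15 and Timp2 were lower, and Adam10 and Adam17 did not pass the test. The counts of 3 higher and 3 lower among the 8 tested genes stand beside 28.2% higher and 27.2% lower over all genes tested, and the libraries of both lines did not overlap for 7 of the 8 genes, against 80.0% of all genes. The same split of 3 higher, 3 lower and 2 not passed was found for B16-F1R2L against B16-F1, beside 29.5% higher and 27.1% lower over all genes, and 6 of the 8 did not overlap, against 80.8%. The counts are therefore close to those of the table as a whole, and the description rests on the single genes. The median difference of the 8 genes was -0.04 in B16-F1R2 and 0.06 in B16-F1R2L on the log2 scale, against 0.0046 and 0.017 over all genes. Both comparisons use the same B16-F1 libraries, so that they are not independent of each other.

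**Figure D1:**
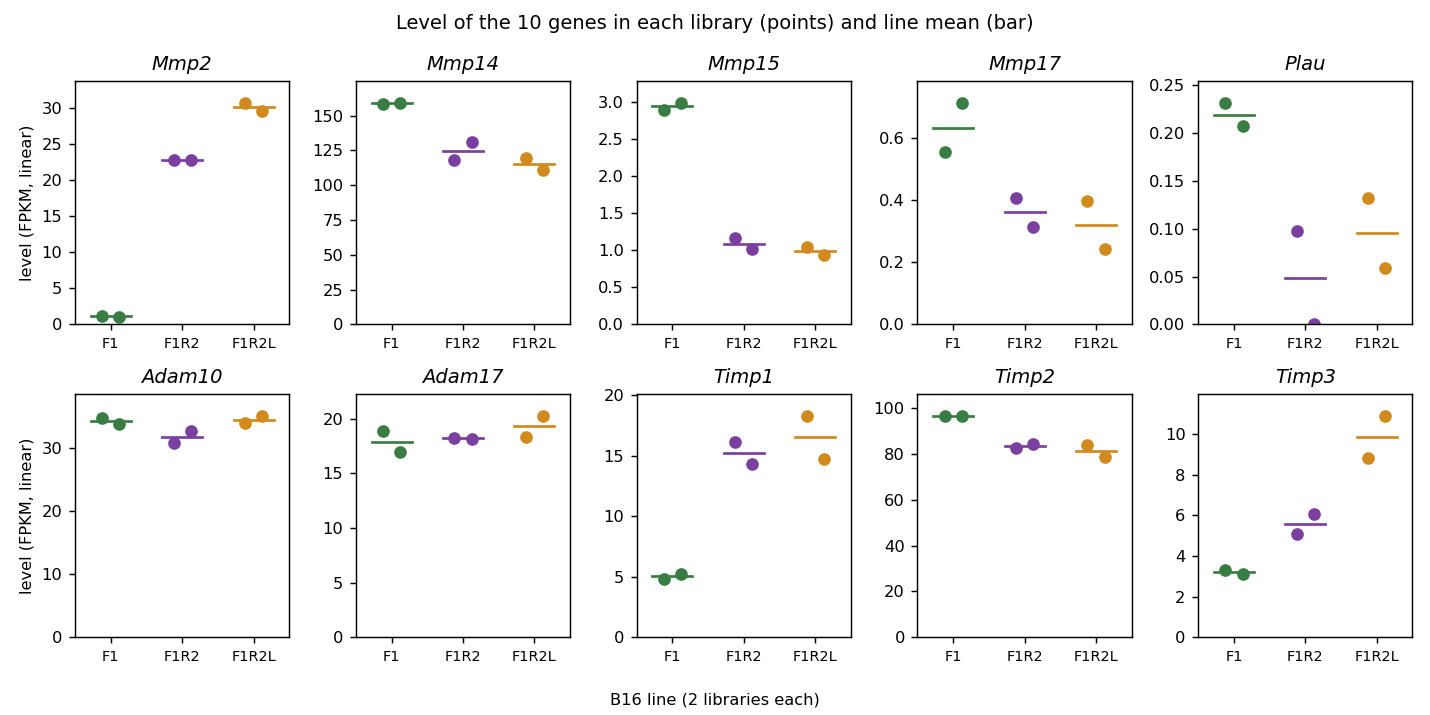
Level of each of the 10 genes in each of the 6 libraries, 1 panel per gene, with FPKM on the vertical axis and the lines along the horizontal axis; points are libraries and bars mark the mean of each line. The B16-F1 libraries of Mmp2 lie near 1 FPKM and those of both variants between 22.8 and 30.7 FPKM, while Adam10 and Adam17 lie at like levels in all lines.

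Mmp2 encodes the secreted gelatinase that degrades type IV collagen, the main collagen of basement membranes. It lies on chromosome 8 at 95351227 to 95377316, plus strand, with 1 annotated transcript of 13 exons. Its level was 1.22 and 1.06 FPKM in the B16-F1 pair of libraries, 22.9 and 22.8 in the B16-F1R2 pair, and 30.7 and 29.6 in the B16-F1R2L pair. The groups did not overlap, and the highest library was 29.0 times the lowest. Against B16-F1 the difference was 4.21 ± 0.08 (SE, n = 2 per line) on the log2(FPKM + 0.1) scale in B16-F1R2, which is 18.5-fold, with an adjusted p of 5.2e-07 from limma. In B16-F1R2L it was 4.61 ± 0.08, or 24.5-fold, with an adjusted p of 3.62e-07. Mmp2 ranked 171st and 148th from the top among the 11379 genes by these differences. With a pseudocount of 1 the differences were 3.48 and 3.86 on the log2 scale, since the B16-F1 level is close to that pseudocount. From the estimated depth, the B16-F1 values rest on about 41.1 to 50.3 reads and those of the variants on 968 to 1327. The rise moved Mmp2 from the eighth to the fourth place among the 10 genes, past Adam17, Timp1, Timp3 and Mmp15.

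The 3 tested genes whose profile over the 6 libraries lay closest to that of Mmp2 were Pdgfrb, a receptor for platelet-derived growth factor, Macc1 and Abcg8. Their root mean square distances from Mmp2, after centring each profile on its mean, were 0.09, 0.10 and 0.13 on the log2 scale, against a range of the Mmp2 line means of 4.61. Pdgfrb stood at 0.183 and 0.133 FPKM in the parental libraries, 4.18 and 4.78 in those of B16-F1R2, and 6.21 and 5.33 in those of B16-F1R2L. Macc1 and Abcg8 were at 0 in both parental libraries and at 1.76 to 2.73 FPKM in the variants. All 3 genes passed the filter through the variants alone, and their distances from Mmp2 depend on the pseudocount of 0.1. Likeness was measured over 6 libraries of 3 lines only.

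Mmp14, Mmp15 and Mmp17 are membrane-type metalloproteinases. Mmp14 and Mmp15 are held by a transmembrane segment, Mmp17 by a lipid anchor. Mmp14 (chromosome 14, 55050441 to 55060095, plus strand) was the most abundant of the 10 genes in all 6 libraries. It stood at 158.7 and 159.0 FPKM in the B16-F1 pair of libraries, 118.5 and 130.8 in the B16-F1R2 pair, and 119.8 and 111.2 in the B16-F1R2L pair. All 4 variant libraries lay under both B16-F1 libraries. The difference was -0.35 ± 0.06 (SE) in B16-F1R2, 1.28-fold lower with an adjusted p of 0.0035 from limma, and -0.46 ± 0.06 in B16-F1R2L, 1.38-fold lower with an adjusted p of 0.0011. At least 96.5% of the genes in the table still lay below Mmp14 in each library.

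Mmp15 (chromosome 8, 97876168 to 97898193, plus strand) is the membrane-type relative of Mmp14. It was at 2.89 and 2.98 FPKM in the parental libraries, 1.16 and 1.01 in those of B16-F1R2, and 1.04 and 0.941 in those of B16-F1R2L. The B16-F1 libraries were higher than all 4 variant libraries, which were close to the filter at 1 FPKM. Mmp15 was 2.57-fold lower in B16-F1R2 (log2 difference -1.36 ± 0.15, SE, adjusted p 0.00046 from limma) and 2.79-fold lower in B16-F1R2L (-1.48 ± 0.15, adjusted p 0.00032). Quantile normalization and a pseudocount of 1 moved these differences in opposite directions, to -1.82 and -0.92 in B16-F1R2 and to -2.55 and -0.98 in B16-F1R2L, and the call held under each.

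Mmp17 (chromosome 5, 130090089 to 130114086, plus strand) was low in every library, with 0.553 and 0.712 FPKM in the B16-F1 pair of libraries, 0.407 and 0.315 in the B16-F1R2 pair, and 0.398 and 0.241 in the B16-F1R2L pair. The B16-F1 libraries were the highest. When genes with low values were kept in the fit, the log2 difference was -0.67 in B16-F1R2 (adjusted p 0.11 from limma) and -0.82 in B16-F1R2L (adjusted p 0.062), so that neither passed. The values rest on an estimated 12.4 to 31.7 reads.

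Plau (chromosome 14, 21655884 to 21662610, plus strand) encodes urokinase, the protease that turns plasminogen into plasmin. It was at 0.232 and 0.207 FPKM in the parental libraries, 0.0979 and 0 in those of B16-F1R2, and 0.132 and 0.0589 in those of B16-F1R2L, where 1 read is worth about 0.0305 FPKM. The highest library therefore held an estimated 7.4 reads. With low genes kept in the fit the log2 differences were -1.18 (adjusted p 0.062) and -0.73 (adjusted p 0.19) from limma, neither of which passed, and Plau was the lowest of the 10 genes in all lines.

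Adam10 (chromosome 9, 70526804 to 70628036, plus strand) and Adam17 (chromosome 12, 21329370 to 21379493, minus strand) are the main sheddases of the cell surface. Adam10 was at 34.8 and 33.9 FPKM in the B16-F1 pair of libraries, 30.9 and 32.8 in the B16-F1R2 pair, and 34.0 and 35.1 in the B16-F1R2L pair. Its B16-F1 and B16-F1R2L libraries overlapped, and the B16-F1R2 libraries lay lower than both. The log2 difference from B16-F1 was -0.11 in B16-F1R2, with a 95% interval from -0.23 to 0.01 and an adjusted p of 0.11 from limma. In B16-F1R2L it was 0.01, with an interval from -0.11 to 0.13 and an adjusted p of 0.89. Adam17 was at 18.9 and 16.9 FPKM in the parental libraries, 18.3 and 18.1 in those of B16-F1R2, and 18.4 and 20.2 in those of B16-F1R2L. Its libraries overlapped between B16-F1 and each variant, and the intervals of the log2 difference from B16-F1 ran from -0.16 to 0.21 in B16-F1R2 and from -0.07 to 0.29 in B16-F1R2L. Of the exon bases of Adam17, 1.36% are shared with Iah1 on the opposite strand, which stood at 25.7 to 42.6 FPKM.

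Timp1 (chromosome X, 20447292 to 20451861, plus strand), a secreted inhibitor of most matrix metalloproteinases, was at 4.81 and 5.24 FPKM in the B16-F1 pair of libraries, 16.1 and 14.3 in the B16-F1R2 pair, and 18.3 and 14.7 in the B16-F1R2L pair. All 4 variant libraries were well above both B16-F1 libraries, and the variants overlapped each other. Timp1 was 2.99-fold higher in B16-F1R2 (log2 difference 1.58 ± 0.12, SE, adjusted p 9.63e-05 from limma) and 3.22-fold higher in B16-F1R2L (1.69 ± 0.12, adjusted p 7.21e-05). The gene lies inside Syn1 on the opposite strand without shared exon bases, and Syn1 did not exceed 0.389 FPKM. Closest in profile to Timp1, whose line means spanned 1.69 on the log2 scale, were Grhpr, a reductase of glyoxylate metabolism, Map4k1 and Espn, at root mean square distances of 0.06, 0.06 and 0.08. Grhpr stood at 15.0 and 15.1 FPKM in the parental libraries, 46.5 and 45.0 in those of B16-F1R2, and 52.9 and 45.5 in those of B16-F1R2L.

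Timp2 (chromosome 11, 118162383 to 118217054, minus strand), the inhibitor that also carries the Mmp2 precursor to Mmp14, was the second most abundant of the 10 genes in all lines. Its level was 96.5 FPKM in both parental libraries, 82.8 and 84.4 in those of B16-F1R2, and 84.0 and 78.8 in those of B16-F1R2L. Every variant library was lower than the B16-F1 libraries. The fall was small, at -0.21 ± 0.05 (SE) on the log2 scale or 1.15-fold in B16-F1R2 (adjusted p 0.0088 from limma) and -0.25 ± 0.05 or 1.19-fold in B16-F1R2L (adjusted p 0.0044). For B16-F1R2 the call was lost without either B16-F1 library, at an adjusted p of 0.054 each time.

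Timp3 (chromosome 10, 85763117 to 85812251, plus strand), the matrix-bound inhibitor, was at 3.32 and 3.11 FPKM in the B16-F1 pair of libraries, 5.09 and 6.04 in the B16-F1R2 pair, and 8.80 and 10.9 in the B16-F1R2L pair. The libraries of the 3 lines did not overlap, and the levels stood in the order B16-F1, B16-F1R2, B16-F1R2L. Timp3 was 1.71-fold higher in B16-F1R2 (log2 difference 0.77 ± 0.13, SE, adjusted p 0.0031 from limma) and 2.99-fold higher in B16-F1R2L (1.58 ± 0.13, adjusted p 0.00015). It lies inside Syn3 on the opposite strand, and 21.3% of its exon bases are shared with Syn3. Syn3 was at 0.768 and 0.894 FPKM in the parental libraries, 0.553 and 0.508 in those of B16-F1R2, and 0.789 and 0.565 in those of B16-F1R2L. The library kit was stranded, but whether the strand was used in making the FPKM is not given in the sources used here, so reads of the shared bases may have been divided between both genes.

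**Figure D2:**
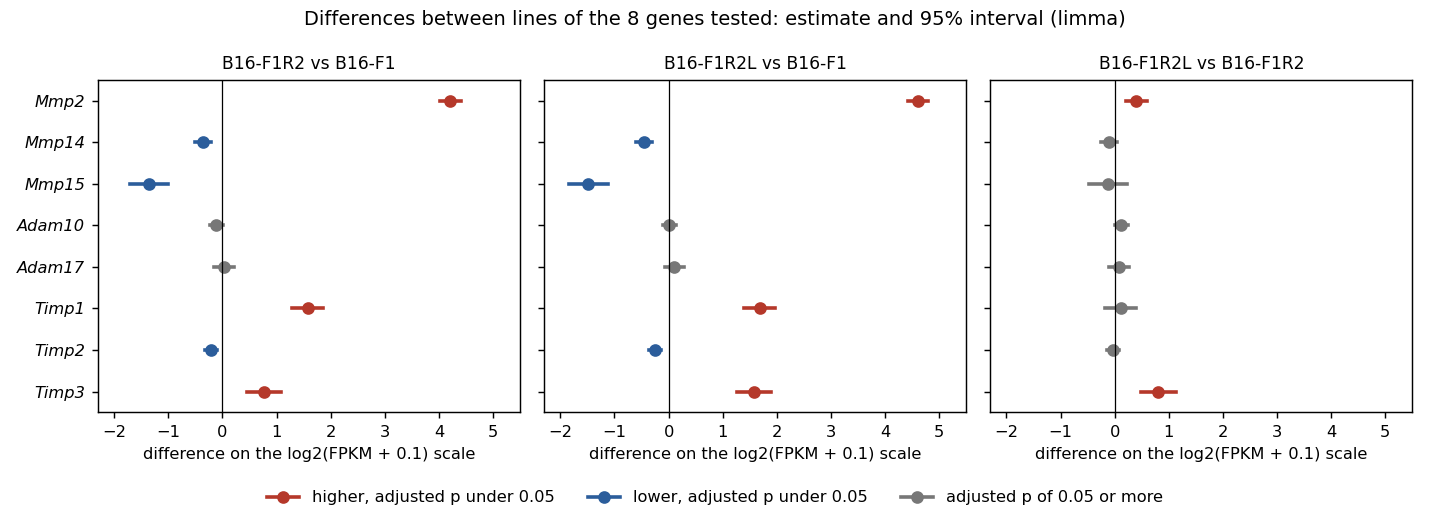
Difference between lines for each of the 8 tested genes on the log2(FPKM + 0.1) scale, 1 panel per comparison; points are limma estimates, bars their 95% intervals and colours the direction of the call. Mmp2 stands at 4.21 and 4.61 in the comparisons with B16-F1, and in the comparison of both variants only Mmp2 and Timp3 among these 8 genes passed the test.

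B16-F1R2L was compared with B16-F1R2 to ask whether the variant that passed through the lung differed from the lymph node variant. Mmp2 and Timp3 were higher in B16-F1R2L, none of the 8 genes was lower, and 6 did not pass, beside 12.1% higher and 10.5% lower over all genes tested. Libraries did not overlap for 4 of the 8, against 65.2% of all genes. Rescaling each library to the same sum changed the count of all genes from 1378 higher and 1190 lower to 2079 and 489. Leaving out replicate 1 of B16-F1R2 lowered it to 317 and 155, and leaving out replicate 2 of B16-F1R2L to 362 and 243. Mmp2 differed by 0.40 ± 0.08 (SE) on the log2 scale, with a 95% interval from 0.21 to 0.59 and an adjusted p of 0.020 from limma. That call was lost when any 1 of the 4 libraries of these lines was left out, at adjusted p of 0.071 to 0.095 with differences of 0.37 to 0.43. Timp3 differed by 0.81 ± 0.13, with an interval from 0.49 to 1.13 and an adjusted p of 0.012. Its call was lost without replicate 1 of B16-F1R2, at 0.69 with an adjusted p of 0.068, and without replicate 2 of B16-F1R2L, at 0.66 with an adjusted p of 0.058. For Timp1 the interval ran from -0.18 to 0.39 and for Mmp15 from -0.48 to 0.24, and neither passed the test.

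Sums of FPKM over the members show how the mixture of transcripts differed, as a description without a test. The sum of Timp1, Timp2 and Timp3 was 104.6 and 104.8 FPKM in the B16-F1 pair of libraries, 104.0 and 104.8 in the B16-F1R2 pair, and 111.0 and 104.4 in the B16-F1R2L pair. The line totals thus lay close together while their make-up differed. Timp2 made up 92.2% and 92.0% of this sum in the parental libraries, 79.6% and 80.6% in those of B16-F1R2, and 75.6% and 75.5% in those of B16-F1R2L. The share of Timp1 was 4.60% and 5.003% in B16-F1 and between 13.7% and 16.4% in the variants. The share of Timp3 was 3.17% and 2.96% in the parental libraries, 4.90% and 5.76% in those of B16-F1R2, and 7.93% and 10.4% in those of B16-F1R2L.

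The sum of the 4 matrix metalloproteinases was 163.3 and 163.8 FPKM in the parental libraries, 142.9 and 154.9 in those of B16-F1R2, and 151.9 and 142.0 in those of B16-F1R2L. Mmp14 accounted for 97.1% of it in both B16-F1 libraries, for 82.9% and 84.5% in B16-F1R2, and for 78.8% and 78.4% in B16-F1R2L. Mmp2 held 0.747% and 0.646% in the parental libraries, 15.99% and 14.7% in those of B16-F1R2, and 20.2% and 20.8% in those of B16-F1R2L. Transcripts of the activating protease therefore outnumbered those of its target in all lines, by a smaller margin in the variants.

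**Figure D3:**
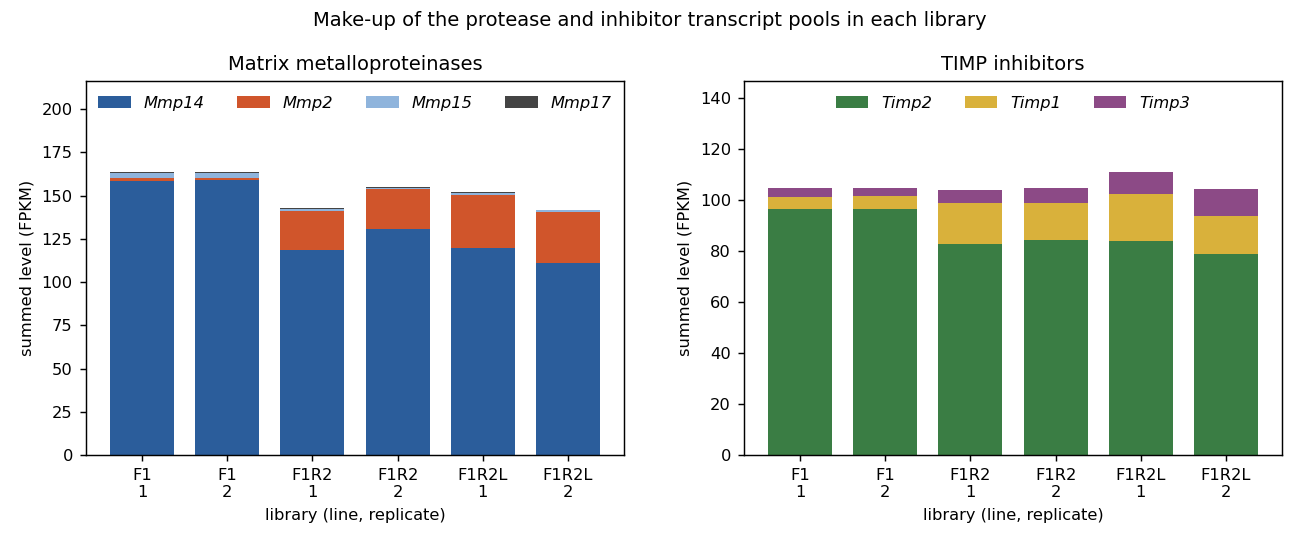
Summed FPKM of the 4 matrix metalloproteinases (left) and of the 3 TIMPs (right) in each of the 6 libraries, stacked by gene, with the bars starting at 0. The TIMP bars stand between 104.0 and 111.0 FPKM in all lines, and the Mmp2 segment is barely visible in B16-F1 and holds 14.7% to 20.8% of the left bars in the variants.

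The ratio of Timp2 to Mmp14, the pair that forms the activation complex, was 0.608 and 0.607 in the parental libraries, 0.699 and 0.646 in those of B16-F1R2, and 0.701 and 0.709 in those of B16-F1R2L. The variant libraries were higher than B16-F1 in each case, because Mmp14 was reduced by more than Timp2. The ratio of Timp2 to Mmp2 was 79.1 and 91.2 in the parental libraries, 3.62 and 3.71 in those of B16-F1R2, and 2.74 and 2.67 in those of B16-F1R2L. Timp3 relative to the sum of Adam10 and Adam17 was 0.0618 and 0.0611 in the parental libraries, 0.104 and 0.119 in those of B16-F1R2, and 0.168 and 0.197 in those of B16-F1R2L. The sheddase sum itself was 49.1 to 55.3 FPKM over the 6 libraries, so this ratio followed Timp3.

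In B16-F1 the order of mean levels was Mmp14, Timp2, Adam10, Adam17, Timp1, Timp3, Mmp15, Mmp2, Mmp17 and Plau. In both variants it was Mmp14, Timp2, Adam10, Mmp2, Adam17, Timp1, Timp3, Mmp15, Mmp17 and Plau. The libraries of neighbouring genes in these orders did not overlap within a line, but in B16-F1R2L the lower Adam17 library (18.4 FPKM) was nearly level with the higher Timp1 library (18.3 FPKM), and in B16-F1 the lower Timp3 library (3.11) was close to the higher Mmp15 library (2.98).

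The other genes of the protease network were read from lists chosen by function. Each count stands beside the shares over all genes tested, which were 28.2% higher and 27.2% lower in B16-F1R2 and 29.5% higher and 27.1% lower in B16-F1R2L, and each median log2 difference beside 0.0046 and 0.017 over all genes. Mmp11, Adam19, Adamts5, Timp4, Hpn, Spint1, Notch1 and Axl reached 1 FPKM in variant libraries alone, so that they were tested only because they were high there, and the counts of higher genes they enter support no direction of their lists. Of 23 matrix metalloproteinases, 4 were tested, namely Mmp2, Mmp14 and Mmp15, already described, and Mmp11 as the 1 further gene. Of these 4, 2 were higher and 2 lower in each variant, with a median log2 difference of 0.43 in B16-F1R2 and 0.79 in B16-F1R2L. Mmp11, known as stromelysin 3, was at 0.609 and 0.256 FPKM in the B16-F1 pair of libraries, 0.759 and 1.47 in the B16-F1R2 pair, and 1.83 and 2.11 in the B16-F1R2L pair. It passed the filter through the variants alone, and its log2 difference was 2.04 in B16-F1R2L (adjusted p 0.0060 from limma; 0.94 with an adjusted p of 0.14 under quantile normalization) and 1.21 in B16-F1R2 (adjusted p 0.044), where the call was lost in 9 of 15 alternatives and quantile normalization turned it to -0.05. Of the 4 proteases known to cut EMILIN-1, Mmp14 alone was tested. Mmp3 was listed at 0 in all 6 libraries, Mmp9 reached at most 0.0899 FPKM and Elane, neutrophil elastase, at most 0.374. The paper reports, as data not shown, that inhibitors of neutrophil elastase and of matrix metalloproteinases left EMILIN-1 cleavage unchanged in vitro. It proposes that other proteases take part.

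Among the inhibitors, Timp4 and the membrane-anchored inhibitor Reck joined Timp1, Timp2 and Timp3 among the genes tested, 5 of 6 listed. In B16-F1R2, 3 were higher and 1 was lower (28.2% and 27.2% over all genes), and in B16-F1R2L 4 were higher and 1 was lower (29.5% and 27.1%). The median log2 difference was 0.77 and 1.58, and 3 of the 5 tested genes are the TIMPs already counted. Timp4 was at 0.0663 and 0.0699 FPKM in the parental libraries, 1.52 and 1.40 in those of B16-F1R2, and 2.12 and 1.92 in those of B16-F1R2L. Having passed the filter through the variants alone, it differed on the log2 scale by 3.22 (adjusted p 4.35e-05 from limma) and 3.65 (adjusted p 2.48e-05), and pseudocounts of 1 and 0.01 moved it to 1.2 and 4.24 in B16-F1R2 and to 1.5 and 4.70 in B16-F1R2L, because the B16-F1 level lies below 0.1 FPKM. Even in the variants Timp4 stayed under the other 3 TIMPs. Reck was at 2.65 and 3.47 FPKM in the B16-F1 pair of libraries, 2.99 and 3.79 in the B16-F1R2 pair, and 5.40 and 5.30 in the B16-F1R2L pair, and B16-F1R2L exceeded the parental line by 0.80 on the log2 scale (adjusted p 0.0067).

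Of 10 ADAM proteases, 6 were tested. Beside Adam10 and Adam17, which did not pass, Adam19 and Adam15 were higher in both variants, Adam9 was lower in B16-F1R2, a call lost without replicate 1 of B16-F1 (adjusted p 0.086 from limma), and Adam12 did not pass. The median log2 difference of the 6 was -0.04 in B16-F1R2 and 0.06 in B16-F1R2L. Adam19 was at 0.851 and 0.758 FPKM in the parental libraries, 3.35 and 4.0 in those of B16-F1R2, and 4.98 and 5.11 in those of B16-F1R2L, a log2 difference of 2.06 (adjusted p 5.01e-05 from limma) and 2.51 (adjusted p 2.12e-05), which a pseudocount of 1 lowered to 1.37 and 1.74, and it too passed the filter only in variant libraries. Adam15 was at 15.1 and 14.9 FPKM in B16-F1 and at 19.7 to 21.9 in the variants. Of 19 ADAMTS proteases, which cleave proteoglycans and procollagens, 8 were tested, with 3 higher and 1 lower in B16-F1R2 (28.2% and 27.2% over all genes) and 4 higher and 3 lower in B16-F1R2L (29.5% and 27.1%), and median log2 differences of 0.26 and 0.30. Adamts5, an aggrecan-cleaving member, was at 0.291 and 0.219 FPKM in the parental libraries and rose to 0.937 and 1.41 in those of B16-F1R2 and 1.13 and 1.21 in those of B16-F1R2L, a call that was lost in both variants under quantile normalization. Adamts20 rose from 2.76 and 2.96 FPKM to 7.03 to 7.40 in the variants. Adamts13 was lower in both variants, at 13.1 to 15.8 FPKM against 19.9 and 19.0 in B16-F1. Adamts1 was lower in B16-F1R2L alone (-0.35 on the log2 scale, adjusted p 0.0040 from limma).

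Of 16 genes of plasminogen activation, 7 were tested, with 4 higher and 0 lower in B16-F1R2 (28.2% and 27.2% over all genes) and 3 higher and 2 lower in B16-F1R2L (29.5% and 27.1%). The median log2 difference was 0.38 and -0.04. Hpn, the membrane-bound serine protease hepsin, was at 0.124 and 0.131 FPKM in the B16-F1 pair of libraries, 5.36 and 5.29 in the B16-F1R2 pair, and 9.25 and 6.59 in the B16-F1R2L pair. It passed the filter in variant libraries alone, as did Spint1, and its log2 difference was 4.58 in B16-F1R2 (adjusted p 7.17e-06 from limma) and 5.12 in B16-F1R2L (adjusted p 4.31e-06). A pseudocount of 1 lowered these to 2.49 and 2.97. Lrp1, the endocytic receptor that clears proteases and their inhibitor complexes, was at 2.15 and 2.16 FPKM in the parental libraries, 8.52 and 10.0 in those of B16-F1R2, and 13.9 and 12.3 in those of B16-F1R2L, all variant libraries being above the B16-F1 libraries. The 2 lower genes in B16-F1R2L were S100a10 and Anxa2, partners in a plasminogen receptor, at 203.2 and 204.2 FPKM against 256.2 and 246.7 in B16-F1 for S100a10. The call of Anxa2 was kept in 9 of 16 alternatives and that of S100a10 in 15 of 16, being lost under quantile normalization. Plg, the plasminogen gene itself, was listed at 0 in all libraries.

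Of 17 genes that activate or carry the member proteases, 14 were tested, with 1 higher and 8 lower in B16-F1R2 (28.2% and 27.2% over all genes) and 3 higher and 6 lower in B16-F1R2L (29.5% and 27.1%). The median log2 difference was -0.29 and -0.10. Tspan10 and Tspan15 are tetraspanins that carry Adam10, and they differed in direction. Tspan10 was at 316.9 and 322.5 FPKM in the B16-F1 pair of libraries, 103.0 and 100.3 in the B16-F1R2 pair, and 127.6 and 135.4 in the B16-F1R2L pair, a log2 difference of -1.65 (adjusted p 2.19e-06 from limma) and -1.28 (adjusted p 4.89e-06). Tspan15 was at 1.99 and 2.19 FPKM in the parental libraries, 3.69 and 3.28 in those of B16-F1R2, and 4.23 and 4.14 in those of B16-F1R2L, a log2 difference of 0.71 (adjusted p 0.0021) and 0.97 (adjusted p 0.00055). Cd63, a tetraspanin of endosomes and vesicles that binds Timp1, fell from 1558 and 1610 FPKM to between 998.2 and 1055 in the variants.

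Of 24 substrates shed by Adam10 or Adam17, 15 were tested, with 8 higher and 5 lower in B16-F1R2 (28.2% and 27.2% over all genes) and 6 higher and 6 lower in B16-F1R2L (29.5% and 27.1%), and median log2 differences of 0.29 and 0.04. The receptor tyrosine kinase gene Met stood at 145.9 and 147.4 FPKM in the B16-F1 pair of libraries, 34.5 and 34.7 in the B16-F1R2 pair, and 43.0 and 45.9 in the B16-F1R2L pair, a log2 difference of -2.08 (adjusted p 9.44e-07 from limma) and -1.72 (adjusted p 1.83e-06). Axl, another receptor tyrosine kinase, went the other way, with 0.987 and 0.805 FPKM in the parental libraries, 5.20 and 5.07 in those of B16-F1R2, and 3.45 and 2.87 in those of B16-F1R2L. Of 18 cathepsins and cystatins, the lysosomal proteases and their inhibitors, 12 were tested, with 2 higher and 6 lower in each variant, beside 27.2% and 27.1% lower over all genes, and median log2 differences of -0.22 and -0.15. Ctsd, cathepsin D, was at 1001 and 994.4 FPKM in B16-F1 and at 499.0 to 558.0 in the variants, while Ctsh, cathepsin H, rose from 3.20 and 3.36 FPKM to between 9.22 and 11.5.

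**Figure D4:**
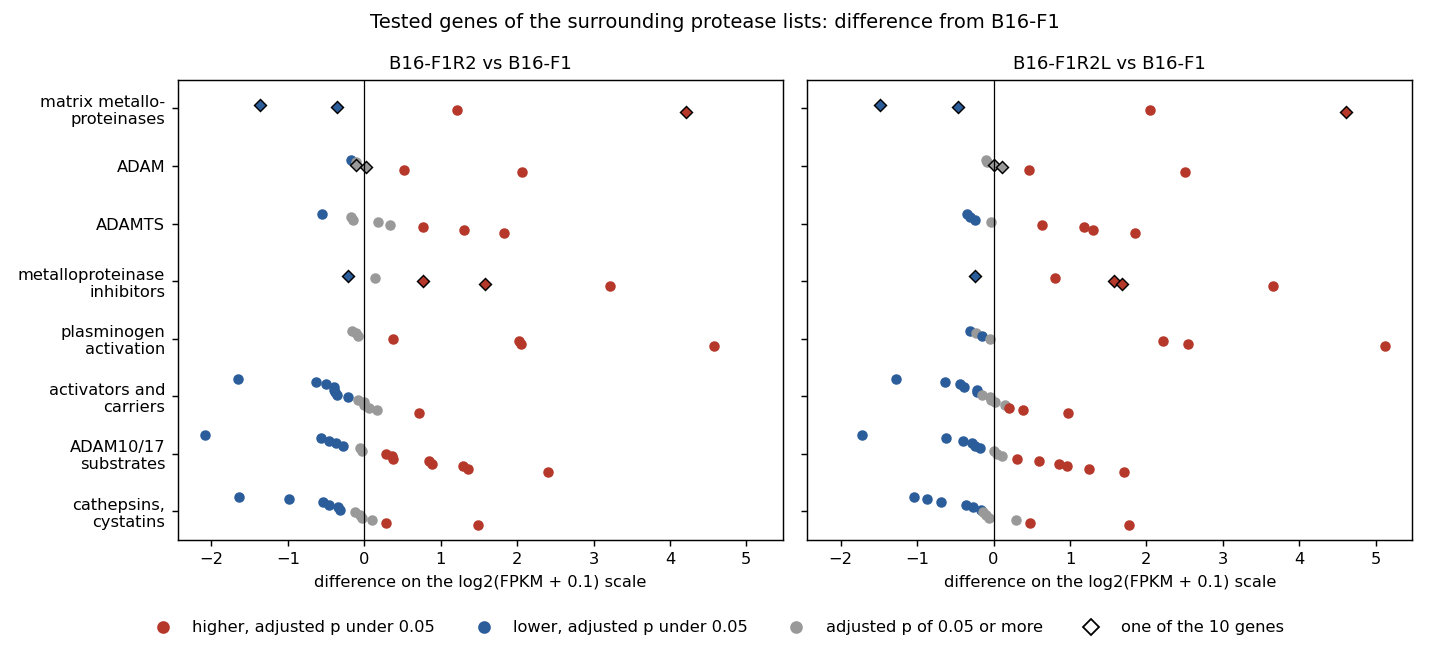
Difference from B16-F1 on the log2(FPKM + 0.1) scale of every tested gene of 8 protease lists, for B16-F1R2 (left) and B16-F1R2L (right); each point is a gene, diamonds are the 10 genes described here where tested, and red and blue mark genes higher or lower at an adjusted p under 0.05. Mmp2 and Hpn lie farthest to the right, and Met farthest to the left.

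Markers of cells that could be mixed with a tumour line were low, apart from Cd79a in the variants. Some of these markers, Cd79a included, moved in the same direction as Mmp2 and Timp1. The 5 fibroblast markers summed to 0.735 to 0.881 FPKM in B16-F1, 1.21 to 1.29 in B16-F1R2 and 1.86 to 2.31 in B16-F1R2L, with Dcn and Lum listed at 0 in all libraries. Most of the sum came from Col1a2, which passed the filter through the variants alone, at 0.635 and 0.742 FPKM in the parental libraries and 1.04 to 2.17 in the variants, while Pdgfra stayed at 0.0784 to 0.144 in all 6. The call of Col1a2 in B16-F1R2 was kept in 10 of 15 alternatives, and its direction turned in 1. The 6 macrophage markers summed to 1.19 to 2.39, 1.94 to 3.12 and 3.21 to 4.35 FPKM in the same order of lines, with Emr1, Itgam and Ptprc at 0. Most of this sum came from Cd68 and Lyz2. Cd68 did not pass in either variant (adjusted p 0.97 and 0.60 from limma). Lyz2 passed the filter through the variants alone. Its call was kept in 5 of 15 alternatives in B16-F1R2 and in 13 of 15 in B16-F1R2L. Of the 5 endothelial markers, Pecam1 went from 0 to between 0.752 and 1.26 FPKM in the variants, Emcn was above 0 in 1 library only, and Cdh5, Kdr and Tek were at 0. The sum of the 5 lymphocyte markers went from at most 0.0806 to between 12.5 and 17.1 FPKM, of which Cd79a held 12.4 to 17.1, with Cd3e at 0. The neutrophil markers found in the table, 5 of 6, reached at most 0.383 FPKM and the 5 keratinocyte markers at most 0.0600. In bulk RNA, fewer cells of a type and less RNA per cell cannot be told apart, and the part of these markers in the levels of Mmp2, Timp1 and Timp3 was not tested.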

How the data were processed

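Polyadenylated RNA of 6 libraries, 2 from each of 3 B16 lines, was sequenced by the authors as single-end reads of 50 bases from a stranded kit and aligned to NCBI37/mm9 with TopHat 2.0.10, Bowtie 1.0.0 and SAMtools 0.1.1.9. The authors deposited FPKM per gene and library in 1 table of 23951 genes, not pooled over replicates, and the submitters' processing notes name Cuffnorm. The gene annotation and strand setting behind these FPKM are not given in the sources used here. The study used DESeq2 for differential expression, and FPKM are not counts, so no count test was run.

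From these values, log2(FPKM + 0.1) was compared with limma 3.58.1 in R 4.3.3 (eBayes with a trend, two-sided) over the 11379 genes that 2 or more libraries held at 1 FPKM or above, with all 6 libraries in 1 fit and Benjamini-Hochberg adjustment at 0.05. Samples were grouped by the line in their labels. With 2 libraries against 2, an exact permutation test cannot give a p below 0.333, and each call draws on a spread shared across genes. The table holds no read totals, and depth (12800000 to 15000000 reads per library) and reads per gene were estimated from the lowest values of genes with 1 transcript, so no counting intervals are given. Positions and overlaps came from the NCBIM37 annotation by symbol, and promoters from RefSeq GRCm38.p6. The script was tested on simulated data. Tables and plots were made in Python 3.11.15 with pandas 2.3.3 and matplotlib 3.10.9.

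The 10 genes and all lists were chosen with earlier results of these data known. Named beside the 10 were at most the 2 genes that moved most in each direction per list and comparison among those past the threshold. Also named were listed proteases that cut EMILIN-1, overlapping genes, and, for the 2 members of widest range, the 3 genes closest in profile. Adam12, Plg, Notch1, Spint1 and single cell type markers were named after their values were seen. Alternatives were pseudocounts of 1 and 0.01, no filter or one at 5 FPKM, 3 other scalings, a fit of only the 4 libraries compared, eBayes without a trend, a replicate block, a log2 fold change of at least 1, and each library left out in turn.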

Additional observations from a re-analysis of the deposited data

Results flagged for a closer look

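The effect against B16-F1 differed between the 2 variant lines for 2 of the 8 tested genes, by limma's test of the difference itself, beside 12.1% of all genes higher and 10.5% lower in this comparison. In B16-F1R2L, Mmp2 exceeded its B16-F1R2 level by 0.40 on the log2 scale (30.7 and 29.6 against 22.9 and 22.8 FPKM), and Timp3 by 0.81 (8.80 and 10.9 against 5.09 and 6.04 FPKM). Both genes were also higher in each variant than in B16-F1, so that B16-F1R2L stood farther from the parental line. The call of Mmp2 was lost without any 1 of the 4 variant libraries and that of Timp3 without 2 of them.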

How the results depend on the processing

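Against B16-F1, Mmp2, Timp1, Timp3, Mmp14 and Mmp15 kept their direction and their call under every alternative that tested them without a minimum fold change, as did Timp2 in B16-F1R2L, and a filter at 5 FPKM left Mmp15 untested, which brought the count of lower genes to 2 in each variant. A minimum log2 fold change of 1 left 2 higher and 1 lower gene in B16-F1R2, 3 higher and 1 lower in B16-F1R2L, and 0 higher genes between the variants. With each library left out in turn, the count of genes higher in B16-F1R2L than in B16-F1R2 lay between 0 and 2, and the calls lost there are given with the values of Mmp2 and Timp3. Directions turned among differences that had not passed the test: Adam10 in B16-F1R2L against B16-F1 with median ratios (-0.00013) and among the fits without 1 library (-0.013 to 0.032), Adam17 in B16-F1R2 against B16-F1 without 1 library (-0.053 to 0.11), Timp1 between the variants without 1 library (-0.044 to 0.26), and Timp2 between the variants under quantile normalization (0.034), rescaling to a sum of 1000000 (0.069) and without 1 library (-0.085 to 0.0066). Under quantile normalization Mmp11 turned to -0.046 in B16-F1R2, and among the listed genes called in B16-F1R2L Notch1 turned direction. Rescaling shifted the median over all genes from 0.022 to 0.13 between the variants and from 0.017 to 0.12 for B16-F1R2L against B16-F1, where the counts went from 3361 higher and 3086 lower to 4075 and 2043. Replicate numbers did not pair the libraries (correlations of their deviations 0.052, -0.10 and 0.079), and a replicate block left the counts at 3 higher and 3 lower, 3 and 3, and 2 and 0. Of the 43, 46 and 19 listed genes called in the 3 comparisons, cell type markers left out, 30, 26 and 4 kept their call under every alternative. Plau and Mmp17 rest on few estimated reads (0 to 7.4 and 12.4 to 31.7 per library), and each line has 2 libraries.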
